A study of Mus musculus with 16 samples.

Results

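The proteasome is the barrel-shaped protease that degrades proteins tagged with ubiquitin. Its 20S core stacks outer rings of alpha subunits (Psma genes) on inner rings of beta subunits (Psmb genes), 3 of which, Psmb5, Psmb6 and Psmb7, carry the peptidase activity. The 19S cap, made of ATPases (Psmc genes) and non-ATPase subunits (Psmd genes), recognises ubiquitin and unfolds the substrate. Other activators (Psme genes) open the core without the cap, and dedicated chaperones (Psmg genes and some Psmd genes) assemble the core and the cap. In Huntington's disease, mutant huntingtin collects in neuronal inclusions that contain ubiquitin and proteasome components, and the striatum is the region hit hardest. The proteasome genes described here were all genes on the array whose probe sets are annotated with exactly 1 symbol starting with Psma, Psmb, Psmc, Psmd, Psme, Psmf or Psmg, other than Psmb8 and Psmb9. They were 47 of the 18193 genes with such a probe set, on 100 probe sets, and each gene was read from its probe set with the highest mean over the 16 arrays. Of these, 45 passed a filter on dim probe sets (a mean log2 level of at least 5.94) and were tested among 13011 genes. Psma8, a testis alpha subunit, had a mean of 5.17 and Psmb11, a thymus beta subunit, a mean of 4.83, so both stayed under the filter, while the dimmest gene above it, Psmc3ip, had a mean of 7.00. Psmc3ip, a partner of meiotic recombinases, and Psme3ip1, which binds the activator encoded by Psme3, fit the naming rule but are not subunits, which leaves 43 tested subunits and cofactors.

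RNA from whole mouse striatum was hybridised to Affymetrix arrays, with 4 biological replicates in each of 4 genotypes of the B6xCBA strain. R6/2 and DREAM+/- mice were each compared with wild-type mice, and R6/2 x DREAM+/- mice with DREAM+/- and with R6/2 mice. The R6/2 transgene is a fragment of human huntingtin that holds an expanded CAG repeat, driven by the human huntingtin promoter and so not restricted to neurons. DREAM+/- mice have 1 knocked-out allele of Kcnip3, which encodes DREAM, a calcium-binding transcriptional repressor; the knockout is not restricted to the striatum. R6/2 x DREAM+/- mice came from crossing the lines. The sources used here do not give age, sex or whether animals were pooled. The labels call the cells striatal neurons, but the RNA was from whole striatum, and markers of neurons, microglia, astrocytes, oligodendrocytes, endothelium and choroid plexus were all above the brightness filter.

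The targeted gene was lowest in the 2 groups labelled DREAM+/-. Kcnip3 had mean log2 levels of 9.67 in wild type and 9.11 in R6/2, against 7.77 in DREAM+/- and 7.56 in R6/2 x DREAM+/-. It changed by -1.895 in DREAM+/- against wild type and by -1.55 in R6/2 x DREAM+/- against R6/2. Its level was also lower in R6/2 than in wild type, by a log2 change of -0.555 and without overlap, although no Kcnip3 allele is knocked out there. Correlations between replicates over all genes ran from 0.990 to 0.997. A pair of arrays stood apart from their groups, R6/2 replicate 1 by its Xist level (6.49, against 11.04 to 12.16 in the other arrays) and R6/2 x DREAM+/- replicate 3 on the third principal component (-15.9, against -4.87 to 10.6). Without both, 8, 5, 1 and 8 proteasome genes passed the test in the 4 comparisons below, against 10, 5, 1 and 6 with all arrays. In bulk tissue, fewer cells of a type and less RNA per cell cannot be told apart, and 8 of 10 medium spiny neuron markers were lower in R6/2 than in wild type, with summed log2 levels of 15.01 to 15.18 against 15.59 to 15.68.

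Short stretches of promoter sequence are shown around the motifs of factors that control proteasome and interferon-responsive genes. They are shown because Psme1 and Psmb10, which rose most in R6/2 over wild type, are known interferon-gamma targets. The shares of windows below were thus read with these changes known and are no test of a cause. RefSeq windows (GRCm38.p6) of 250 bases before to 50 after the gene start were found for 39 of the 47 genes, 42 windows in all. The core of the interferon-stimulated response element, bound by IRF factors and spelled GAAA, any 2 bases, GAAA, was searched on both strands. It occurred in 5 of these windows, 11.9%, against 3.03% of the 18110 windows of genes on the array. The 5 genes were Psme1, Psmg4, Psmb3, Psmd4 and Psmd9, and their 30 bases around the motif, which is in capitals, read 5′ to 3′ on the gene's strand as follows.
Psme1 (chr14:55578493-55578522, plus strand): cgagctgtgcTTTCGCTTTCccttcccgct
Psmg4 (chr13:34162969-34162998, plus strand): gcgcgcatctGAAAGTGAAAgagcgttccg
Psmb3 (chr11:97703261-97703290, plus strand): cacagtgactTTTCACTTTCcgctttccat
Psmd4 (chr3:95042675-95042704, minus strand): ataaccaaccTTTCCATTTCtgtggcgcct
Psmd9 (chr5:123228021-123228050, plus strand): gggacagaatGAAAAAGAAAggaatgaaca
Only Psme1 of these 5 genes passed the test in both R6/2 comparisons below, Psmd9 passed in 1 of them, and Psmg4 fell in a DREAM+/- comparison. Psmb10 had 1 window, which held no match to this motif. A match describes letters in the window and is not evidence that a factor binds there, and no match says nothing of the factor.

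The core of the antioxidant response element, TGACNNNGC, was searched in the same way. It is bound by NFE2L1, which drives proteasome genes when the proteasome is impaired, and by NFE2L2, the master factor of the antioxidant response. It occurred in 6 of the 42 windows, 14.3%, against 13.9% of windows of genes on the array, a share near that background. Those of Psmb5 and Psmb6, both peptidase subunits, of the cap chaperone Psmd9 and of the activator Psme4 are shown with the motif in capitals, to be read beside their different changes below.
Psmb5 (chr14:54618023-54618052, minus strand): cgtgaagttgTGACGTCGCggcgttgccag
Psmb6 (chr11:70525338-70525367, plus strand): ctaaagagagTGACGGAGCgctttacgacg
Psmd9 (chr5:123228149-123228178, plus strand): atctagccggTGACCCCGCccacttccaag
Psme4 (chr11:30771758-30771787, plus strand): cgctgcggctGCAGCGTCAccagaagagcc
The other genes with this core were Psmc6 and Psmd12. The CCAAT box, bound by NF-Y, occurred in 35.7% of the proteasome windows and in 37.4% of windows of genes on the array. The gamma-activated sequence TTCNNNGAA, bound by STAT dimers, occurred in 4.76% against 7.21%. GTCA, the core of the element through which DREAM was first reported to bind DNA, occurred in 90.5% against 82.9%, so this short motif separates few genes.

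The first question was how R6/2 striatum differed from wild type. In R6/2, 9 of 45 proteasome genes were higher and 1 was lower by limma (adjusted p under 0.05 by Benjamini-Hochberg, taken over all 13011 genes). That is 22.2% of them, while 25.4% of all genes tested passed, 13.5% higher and 11.9% lower, so the number that passed was near the background. The direction was less even: 34 of 45 log2 changes were positive (75.6%, against 57.3% of all genes), and the median change was 0.065, against 0.03 over all genes. In 10 genes every R6/2 array lay above every wild-type array (so did 13.4% of all genes) and in 1 below (11.8% of all genes). Most changes were small, with a standard deviation of 0.14 over the 45 genes against 0.22 over all genes. On the DREAM+/- background, 5 of 45 genes were higher in R6/2 x DREAM+/- than in DREAM+/- and none was lower by the same test (11.1%, with 14.9% of all genes passing, 7.07% higher and 7.87% lower). An unadjusted p under 0.05 was found for 13 of 45 genes in the first comparison (37.4% of all genes) and for 15 in this one (28.2% of all genes). There 37 of 45 changes were positive (82.2%, against 56.5% of all genes), with a median of 0.085 against 0.0225. In 10 genes every R6/2 x DREAM+/- array lay above every DREAM+/- array (10.4% of all genes) and in none below (8.46% of all genes). The counts that passed fell from 10 to 5 and from 5 to 2 when the arrays were shifted to a common median, and Psme1 and Psmb10 still passed in both comparisons.

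**Figure D1:**
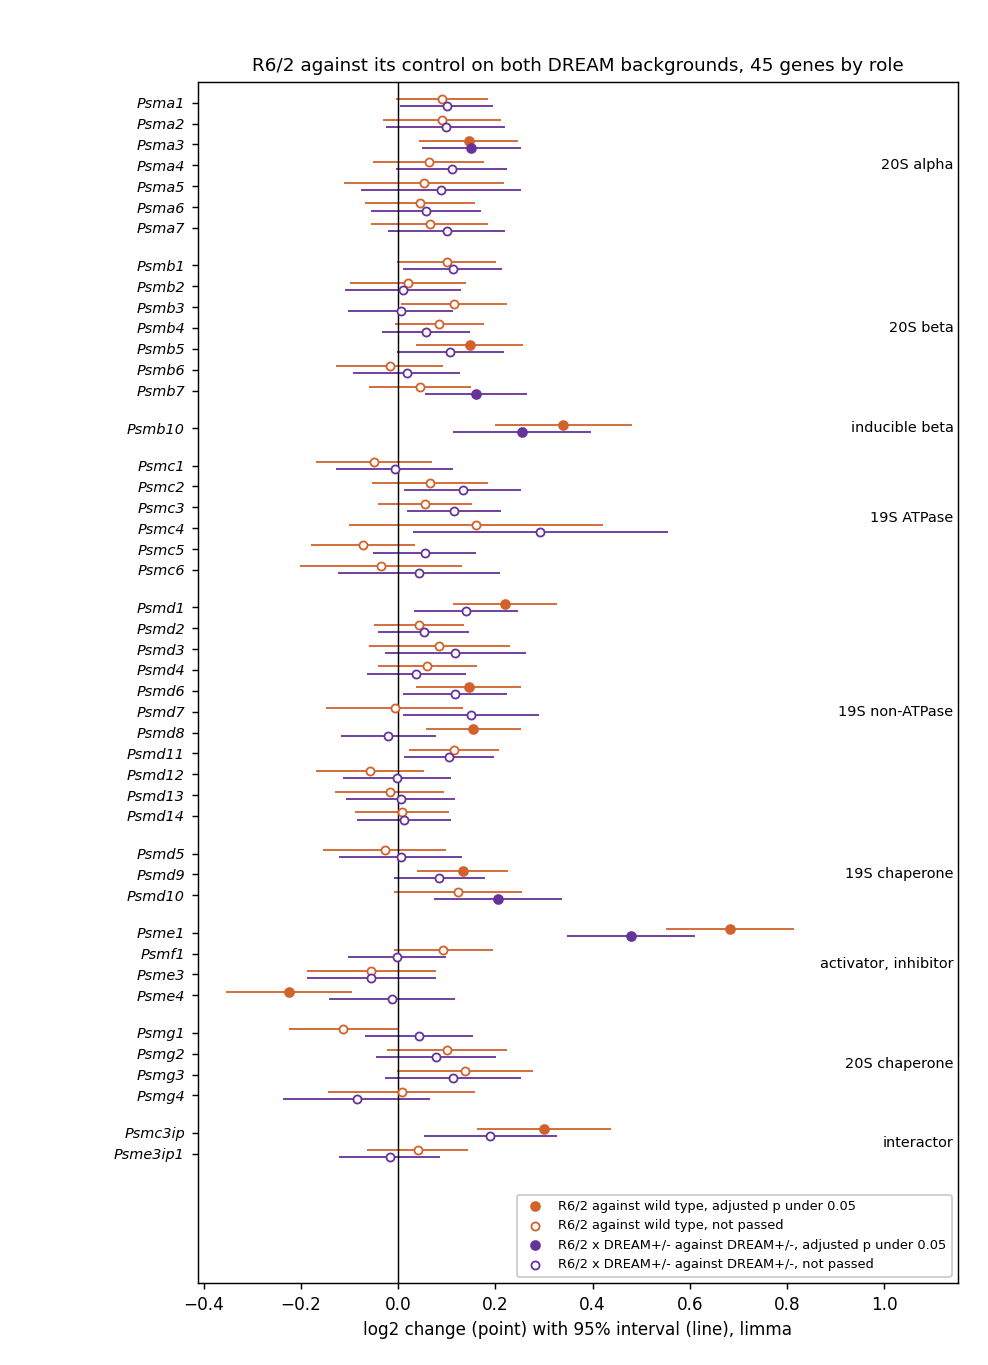
Log2 change (horizontal axis) of the 45 tested proteasome genes, grouped by role, in R6/2 against wild type and in R6/2 x DREAM+/- against DREAM+/- (4 arrays a group), with 95% intervals from limma; filled points passed at an adjusted p under 0.05. Psme1 lies apart to the right in both comparisons, Psmb10 (0.34 and 0.255) lies among the higher genes beside Psmc3ip and Psmc4, most core subunits lie slightly above 0, and Psme4 lies below 0 in the first comparison.

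The activators held the changes of greatest size. Psme1 encodes the alpha subunit of PA28, the interferon-inducible activator of the core that favours the making of antigenic peptides. Its log2 levels were 9.41, 9.38, 9.21 and 9.39 in wild type and 9.28, 9.16, 9.22 and 9.27 in DREAM+/-. They were 10.00, 10.14, 9.97 and 10.01 in R6/2 and 9.84, 9.57, 9.71 and 9.73 in R6/2 x DREAM+/-. Every array with the R6/2 transgene was above every array without it, and the R6/2 arrays were above those of R6/2 x DREAM+/-. Psme1 was 1.60-fold higher in R6/2 than in wild type (log2 change 0.68, SE 0.063, 95% interval 0.55 to 0.81, limma adjusted p = 8.34e-07). On the DREAM+/- background it was 1.39-fold higher (0.48, interval 0.35 to 0.61, adjusted p = 6.09e-05). In R6/2 x DREAM+/- it was lower than in R6/2 by 0.32 (log2 change -0.32, interval -0.45 to -0.19, adjusted p = 0.00434). The difference between the R6/2 changes on the 2 backgrounds was -0.20, with an interval of -0.39 to -0.02, an unadjusted p of 0.035 and a limma adjusted p of 0.71, so it did not pass. Psme1 had 1 probe set. Psme2, its partner in PA28, was left out because its probe set carries more than 1 symbol.

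Psmb10 encodes the beta subunit that takes the place of Psmb7 in the immunoproteasome, the interferon-inducible form of the core. Its log2 levels were 8.95, 8.91, 8.82 and 8.80 in wild type and 9.00, 9.37, 9.24 and 9.23 in R6/2. They were 8.86, 8.84, 8.81 and 8.85 in DREAM+/- and 9.01, 9.05, 9.20 and 9.12 in R6/2 x DREAM+/-. The arrays with the R6/2 transgene did not overlap those without it. The rise was 1.27-fold over wild type (log2 change 0.34, interval 0.20 to 0.48, adjusted p = 0.00133) and 1.19-fold on the DREAM+/- background (0.255, interval 0.11 to 0.40, adjusted p = 0.0153). The other inducible beta subunits, Psmb8 and Psmb9, which the naming rule leaves out, had mean log2 levels of 6.57 and 6.32, nearer the filter than Psmb10 (9.00). Their log2 changes were 0.12 (adjusted p = 0.175) and 0.16 (adjusted p = 0.106) against wild type and did not pass by limma (unadjusted p = 0.0731 and 0.0364). On the DREAM+/- background these were 0.185 (adjusted p = 0.0571) and 0.06 (adjusted p = 0.626), with unadjusted p of 0.00901 and 0.399. There every R6/2 x DREAM+/- array of Psmb8 lay above every DREAM+/- array (10.4% of all genes). Of 7 microglia markers, cells rich in immunoproteasome, none passed in either R6/2 comparison by limma (2 and 0 had an unadjusted p under 0.05), and their summed log2 levels were 12.57 to 12.81 in wild type and 12.62 to 12.74 in R6/2. Other markers were lower in R6/2 than in wild type as well: 5 of 7 of cortical projection neurons (median log2 change -0.635), 3 of 7 of oligodendrocytes and 3 of 8 of astrocytes, with 1 of those 8 higher. The part of these and of the medium spiny neuron markers in the rise of Psme1 and Psmb10 was not tested.

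Psme4 encodes PA200, a nuclear activator that opens the core to acetylated histones and small proteins. It was the proteasome gene that fell in R6/2. Its log2 levels were 9.68, 9.61, 9.58 and 9.59 in wild type and 9.31, 9.48, 9.39 and 9.38 in R6/2, without overlap. They were 9.79, 9.96, 9.95 and 10.00 in DREAM+/- and 9.80, 9.85, 10.05 and 9.95 in R6/2 x DREAM+/-, all above both groups with 2 intact alleles of Kcnip3. In R6/2 it was lower than in wild type by 0.225 on the log2 scale (log2 change -0.225, interval -0.35 to -0.10, adjusted p = 0.0122), whereas on the DREAM+/- background the change was -0.0125 (interval -0.14 to 0.12, adjusted p = 0.923). The difference between these changes was 0.21, with an unadjusted p of 0.0252 and a limma adjusted p of 0.705. Psme3, the nuclear PA28 gamma subunit, had log2 changes of -0.055 in each R6/2 comparison (adjusted p = 0.557 and 0.62). Its other probe set above the filter changed by -0.20 in R6/2 and by 0.20 on the DREAM+/- background. Neither passed among all probe sets by limma (adjusted p = 0.0928 and 0.135), nor did the difference of 0.40 between them (adjusted p = 0.704).

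**Figure D2:**
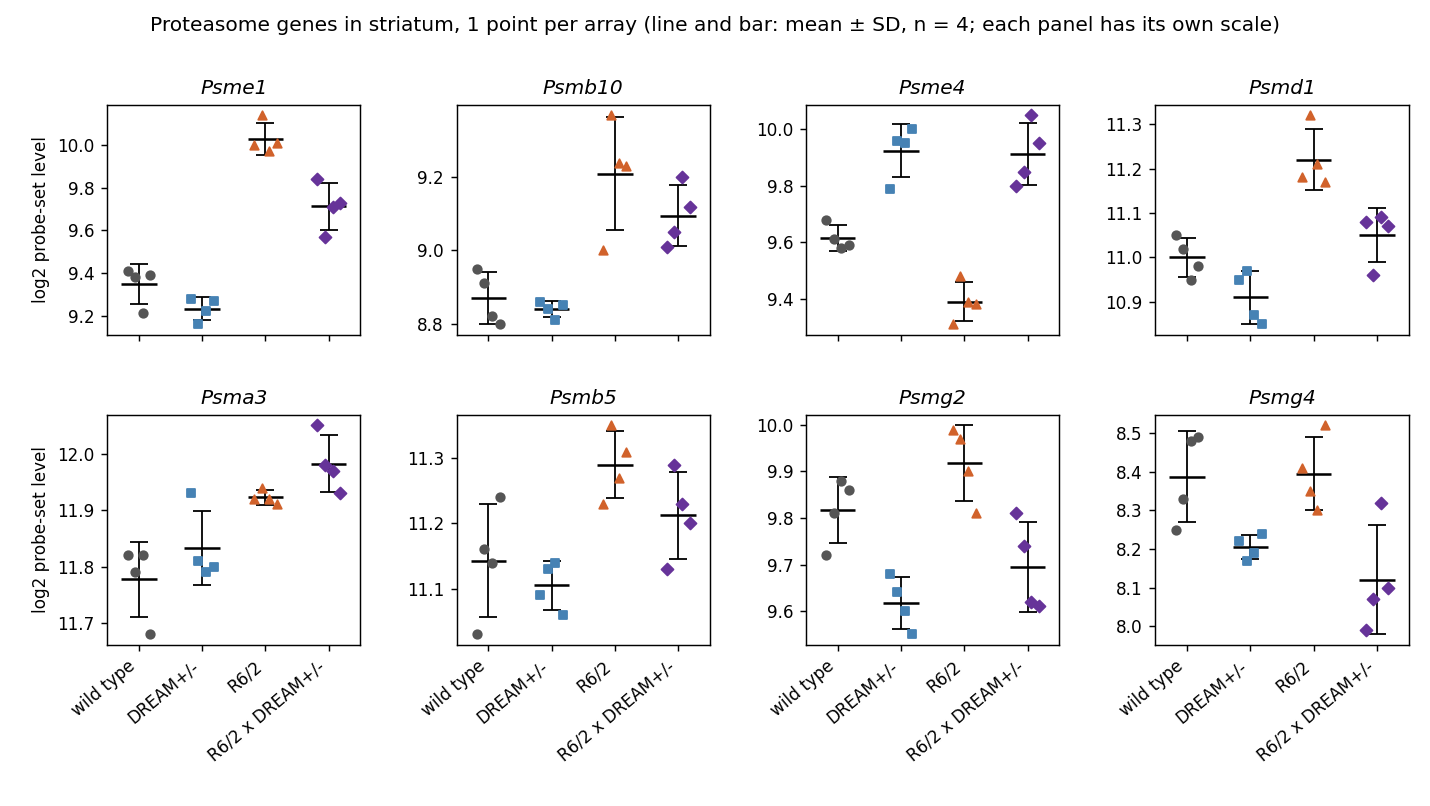
Log2 probe-set level (vertical axis, a separate scale in each panel) of 8 proteasome genes in the 16 arrays by genotype; points are arrays, the long line is the mean and the bar the SD (n = 4). Psme1 and Psmb10 are high in both groups with R6/2, Psme4 is high in both groups with DREAM+/-, and Psmg2 and Psmg4 are low in both groups with DREAM+/-.

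In the alpha rings of the core, all 7 tested genes had positive changes in both R6/2 comparisons, 0.045 to 0.145 against wild type and 0.0575 to 0.15 on the DREAM+/- background. Over all genes, 57.3% and 56.5% of changes were positive. Genes of a ring are not independent: averaged over the 7, wild-type arrays ran from -0.11 to 0.091 around their mean, and the R6/2 mean lay at 0.079. Psma3 passed in both. Its log2 levels were 11.82, 11.79, 11.82 and 11.68 in wild type and 11.92, 11.94, 11.92 and 11.91 in R6/2, without overlap (log2 change 0.145, adjusted p = 0.0359). They were 11.93, 11.81, 11.79 and 11.80 in DREAM+/- and 12.05, 11.98, 11.97 and 11.93 in R6/2 x DREAM+/-, where the lowest array equalled the highest of DREAM+/- (0.15, adjusted p = 0.0448). Psma1, Psma2, Psma4, Psma5, Psma6 and Psma7 did not pass. The calls of Psma3 sat near the threshold: the first was lost on leaving out any R6/2 array or wild-type replicate 2 or 4 (adjusted p = 0.0588 to 0.102), and the second on leaving out any 1 of 11 arrays, including 4 R6/2 arrays and 1 wild-type array that share only the estimate of spread (0.0507 to 0.124). Both calls were lost with the mean of its probe sets (0.13, adjusted p = 0.0808, and 0.081, adjusted p = 0.344).

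In the beta rings, 6 of 7 standard genes had positive changes against wild type and all 7 on the DREAM+/- background (57.3% and 56.5% of all genes). Of the peptidase subunits, Psmb5, the chymotrypsin-like activity, rose in R6/2. Its log2 levels were 11.03, 11.16, 11.14 and 11.24 in wild type and 11.23, 11.35, 11.27 and 11.31 in R6/2, with 1 wild-type array inside the R6/2 range (log2 change 0.15, interval 0.04 to 0.26, adjusted p = 0.0472). Psmb7, the trypsin-like activity, rose on the DREAM+/- background, from 11.67, 11.69, 11.63 and 11.64 to 11.77, 11.96, 11.74 and 11.80, without overlap (0.16, adjusted p = 0.0372). Psmb6, the caspase-like activity, had changes of -0.0175 and 0.0175 (adjusted p = 0.835 and 0.865), and its levels overlapped in every comparison. Neither call for a peptidase subunit was secure. That of Psmb5 was lost on leaving out any 1 of 11 arrays (R6/2 replicates 2, 3 and 4, wild-type replicates 1, 2 and 3, all 4 DREAM+/- arrays and R6/2 x DREAM+/- replicate 4; adjusted p = 0.0549 to 0.15). That of Psmb7 was lost without R6/2 x DREAM+/- replicate 2 or 4 or any DREAM+/- array (0.0585 to 0.115).

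**Figure D3:**
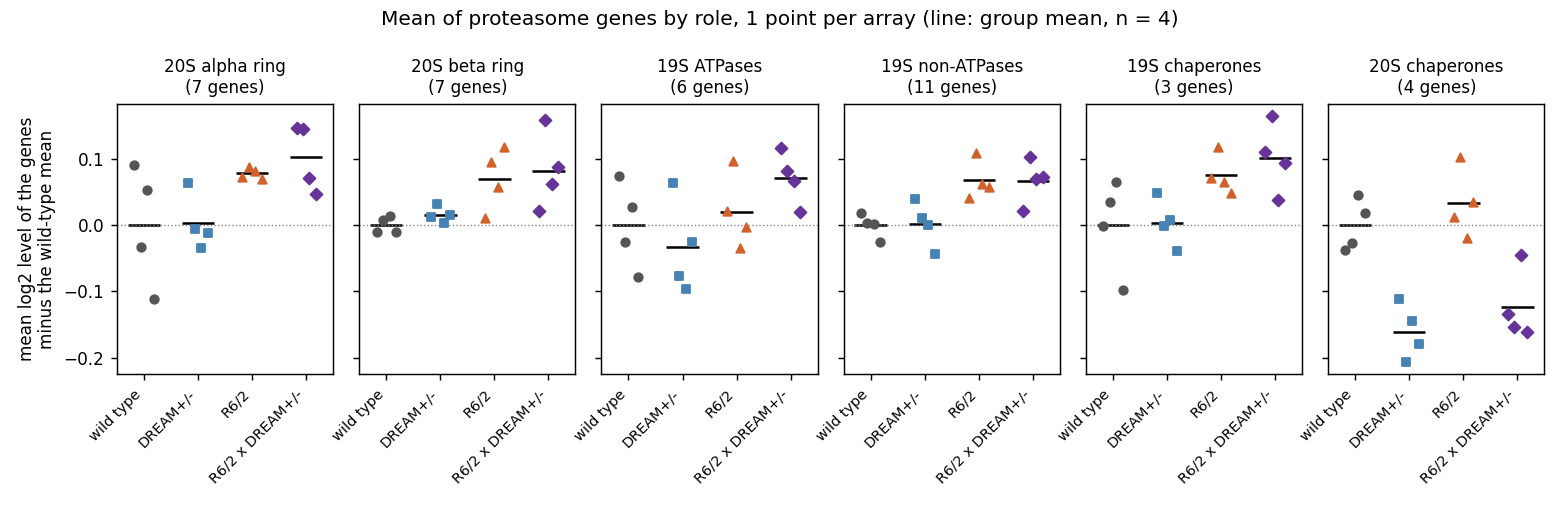
Mean log2 level of the genes of each role on each array, minus the wild-type mean (vertical axis), for 6 roles; points are the 16 arrays and lines the group means (n = 4). The group means of core and cap subunits lie slightly higher in the groups with R6/2, with wild-type alpha-ring arrays spread from -0.11 to 0.091, and the means of the 4 core chaperones lie lower in the groups with DREAM+/-.

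Averaged over the 14 standard core subunits, the R6/2 arrays lay 0.042 to 0.094 above the wild-type mean on the log2 scale and the R6/2 x DREAM+/- arrays 0.067 to 0.15 above it. Wild-type arrays lay between -0.061 and 0.040 and DREAM+/- arrays between -0.015 and 0.038. Every array with R6/2 was thus above every array without it, but narrowly, at 0.042 against 0.040 where they came closest. The group means differed from that of wild type by 0.075 and 0.093, less than the span of the wild-type arrays. The separation held for neither ring alone: an R6/2 x DREAM+/- array at 0.048 against wild type up to 0.091 (alpha), and an R6/2 array at 0.011 against DREAM+/- up to 0.032 (beta). It also failed for the 17 cap subunits (R6/2 0.028, DREAM+/- 0.048) and for all 31 standard subunits (0.038 and 0.044).

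In the 19S cap, none of the 6 ATPase genes Psmc1 to Psmc6 passed in either R6/2 comparison by limma (0 and 3 had an unadjusted p under 0.05). Over all genes, 25.4% and 14.9% passed in these comparisons. Psmc4 had a wide interval (log2 change 0.16, interval -0.10 to 0.42, adjusted p = 0.369, and 0.29, interval 0.03 to 0.55, adjusted p = 0.13). Its next probe set, with smaller spread, changed by 0.155 in R6/2 and passed among all probe sets (adjusted p = 0.0399), and by 0.105 on the DREAM+/- background (adjusted p = 0.204). Of the 11 non-ATPase genes, 3 rose in R6/2, or 27.3%, a share near the 25.4% of all genes that passed. Psmd1 encodes a large scaffold subunit at the base of the cap that docks ubiquitin receptors. Its log2 levels were 11.05, 11.02, 10.95 and 10.98 in wild type and 11.18, 11.32, 11.21 and 11.17 in R6/2. They were 10.95, 10.97, 10.87 and 10.85 in DREAM+/- and 11.08, 10.96, 11.09 and 11.07 in R6/2 x DREAM+/-. The R6/2 arrays were above all others. Psmd1 was 1.16-fold higher in R6/2 than in wild type (log2 change 0.22, interval 0.11 to 0.33, adjusted p = 0.00403), while on the DREAM+/- background the change was 0.14 (interval 0.03 to 0.25, adjusted p = 0.0727).

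Psmd8, a lid subunit, rose from 10.76, 10.82, 10.74 and 10.76 in wild type to 10.90, 10.97, 10.84 and 10.99 in R6/2, without overlap (log2 change 0.155, adjusted p = 0.0202). In DREAM+/- and R6/2 x DREAM+/- its levels overlapped, 10.80, 10.85, 10.81 and 10.79 against 10.73, 10.83, 10.78 and 10.83 (-0.02, adjusted p = 0.822). The difference between these changes, -0.175, had the smallest p of the 45 genes (unadjusted 0.0155, limma adjusted p = 0.645). Psmd6, another lid subunit, rose from 11.14, 11.14, 11.12 and 10.99 to 11.21, 11.31, 11.23 and 11.22 (0.145, adjusted p = 0.0453). No non-ATPase gene passed on the DREAM+/- background by limma, against 14.9% of all genes. There 9 of 11 changes were positive (56.5% of all genes) and 4 had an unadjusted p under 0.05. Psmd8's call was lost without R6/2 replicate 2 or 4 or wild-type replicate 3 (adjusted p = 0.0519 to 0.0652), and that of Psmd6 without any 1 of 12 arrays (0.0513 to 0.127), all but DREAM+/- replicate 4 and R6/2 x DREAM+/- replicates 1, 2 and 3.

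Among the cap chaperones, Psmd9 rose in R6/2 and Psmd10, also known as gankyrin, on the DREAM+/- background. Psmd9 had log2 levels of 8.36, 8.42, 8.32 and 8.32 in wild type and 8.51, 8.41, 8.51 and 8.52 in R6/2, overlapping at 1 array (log2 change 0.13, adjusted p = 0.0361). Psmd10 had 8.91, 8.88, 8.82 and 8.77 in DREAM+/- and 9.03, 9.18, 9.00 and 8.99 in R6/2 x DREAM+/-, without overlap (0.205, adjusted p = 0.0341). The call of Psmd9 was lost without R6/2 replicate 1, 3 or 4 or wild-type replicate 1, 3 or 4 (adjusted p = 0.0619 to 0.0874) and with the mean of its probe sets, a probe set under the filter included (0.11). That of Psmd10 was lost without R6/2 x DREAM+/- replicate 1 or 2 or DREAM+/- replicate 2, 3 or 4 (0.0587 to 0.107). Psmc3ip, no subunit, rose from 6.99, 6.92, 6.78 and 6.82 in wild type to 7.16, 7.17, 7.23 and 7.15 in R6/2 (0.30, adjusted p = 0.00271), and had a change of 0.19 on the DREAM+/- background (adjusted p = 0.0593). Its other probe set above the filter changed by 0.0075 in R6/2 (adjusted p = 0.965), and with the mean of all its probe sets the change was 0.15 (adjusted p = 0.0382).

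The 2 R6/2 comparisons share no arrays. Over the 45 genes their log2 changes had the same sign in 34, 30 positive and 4 negative, and correlated across genes at r = 0.79, or 0.64 without Psme1. Over all genes tested the same figures were 75.7% of the same sign and r = 0.80. The changes of proteasome genes on 1 background thus resembled those on the other about as much as for genes in general. Genes are not independent replicates, and these values describe the arrays. Psme1, Psmb10 and Psma3 passed in both. No proteasome gene, and no gene at all, passed the test of the difference between the R6/2 changes on the 2 backgrounds by limma (3 of 45 and 898 of 13011 had an unadjusted p under 0.05).

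The next question was what loss of 1 DREAM allele changed. In DREAM+/- against wild type, 1 of 45 proteasome genes passed (2.22%, with 3.68% of all genes passing, 1.60% higher and 2.08% lower), and 22 changes were positive, 22 negative and 1 was 0. The gene was Psme4, higher by 0.31 on the log2 scale, or 1.24-fold (interval 0.18 to 0.44, adjusted p = 0.00757). In R6/2 x DREAM+/- against R6/2, 2 genes were higher and 4 lower (13.3%, with 14.0% of all genes passing, 5.33% higher and 8.65% lower). Psme4 was again higher, by 0.52 or 1.44-fold (interval 0.39 to 0.65, adjusted p = 4.95e-05), and its arrays did not overlap in either comparison. In R6/2 x DREAM+/- against R6/2 it was the 1 gene of 45 whose arrays all lay above (6.24% of all genes), and 3 lay wholly below (9.59%).

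**Figure D4:**
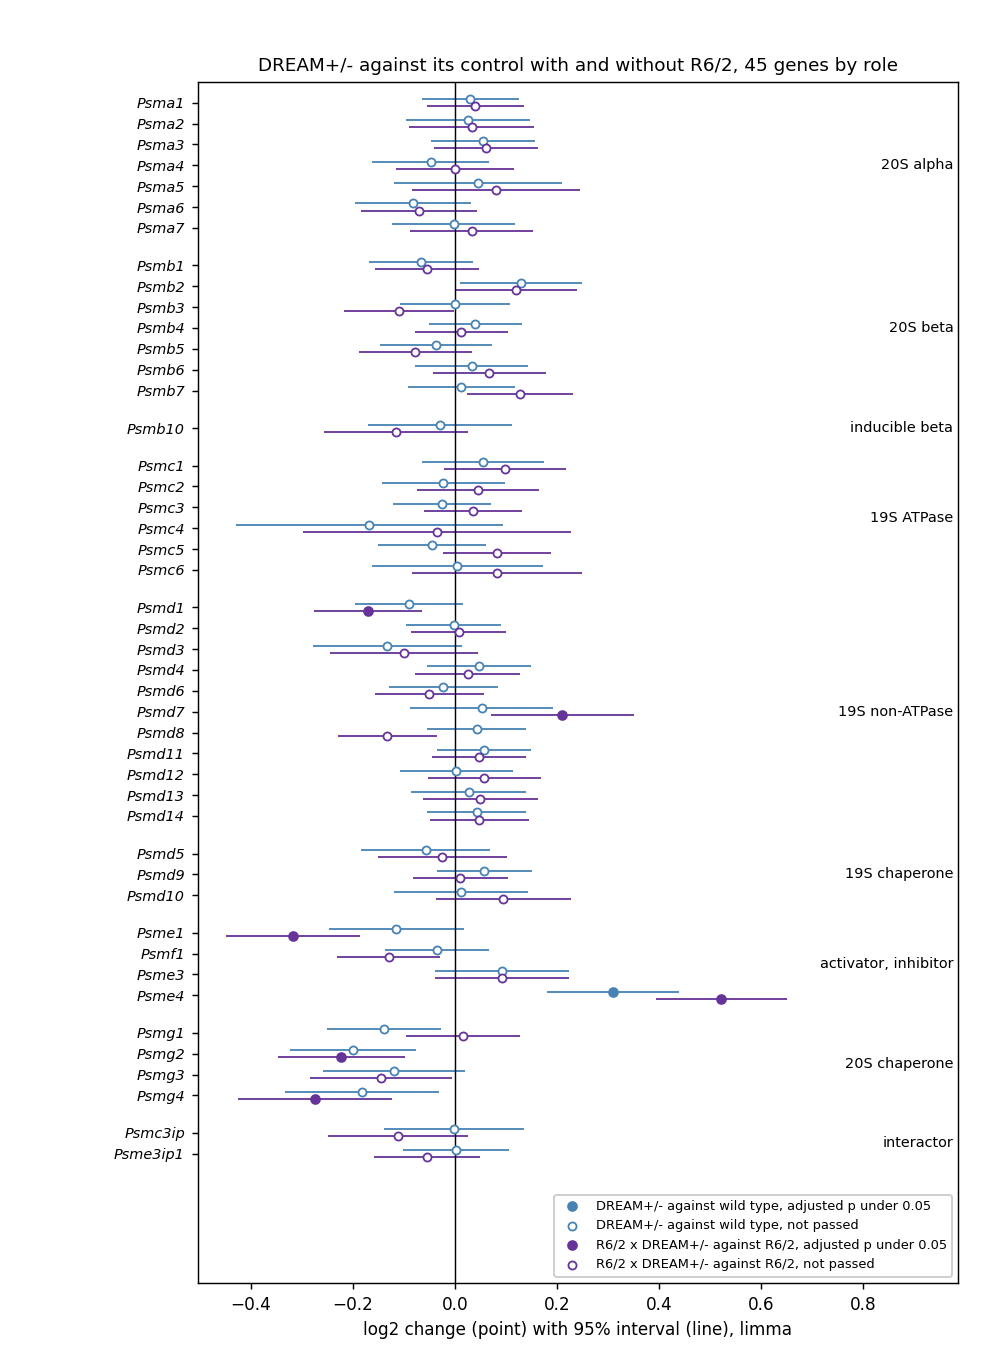
Log2 change (horizontal axis) of the 45 tested proteasome genes, grouped by role, in DREAM+/- against wild type and in R6/2 x DREAM+/- against R6/2 (4 arrays a group), with 95% intervals from limma; filled points passed at an adjusted p under 0.05. Psme4 lies far to the right in both, the 20S chaperones lie mostly to the left, and the core and cap subunits scatter around 0.

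Psme4 has 6 probe sets, 4 of them above the filter, and they did not all move alike. In R6/2 x DREAM+/- against R6/2 the brightest changed by 0.52 and the next ones by 0.36, 0.23 and 0.18, of which the first 3 passed among all probe sets (adjusted p = 0.000114, 0.0105, 0.0406 and 0.106). In DREAM+/- against wild type they changed by 0.31, 0.19, 0.21 and -0.02, and only the brightest passed (adjusted p = 0.0113, 0.226, 0.122 and 0.929). In R6/2 against wild type the changes were -0.225, -0.13, -0.105 and -0.0125 (adjusted p = 0.0182, 0.282, 0.317 and 0.928). The brightest probe set is of the type whose probes may match several transcripts. With the next probe set in its place, the calls in R6/2 and in DREAM+/- were lost (log2 change -0.13, adjusted p = 0.241, and 0.19, adjusted p = 0.195), while that in R6/2 x DREAM+/- over R6/2 held (0.36, adjusted p = 0.00766). With the mean of all its probe sets, those under the filter included, the call in R6/2 was lost as well (-0.077, adjusted p = 0.342).

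**Figure D5:**
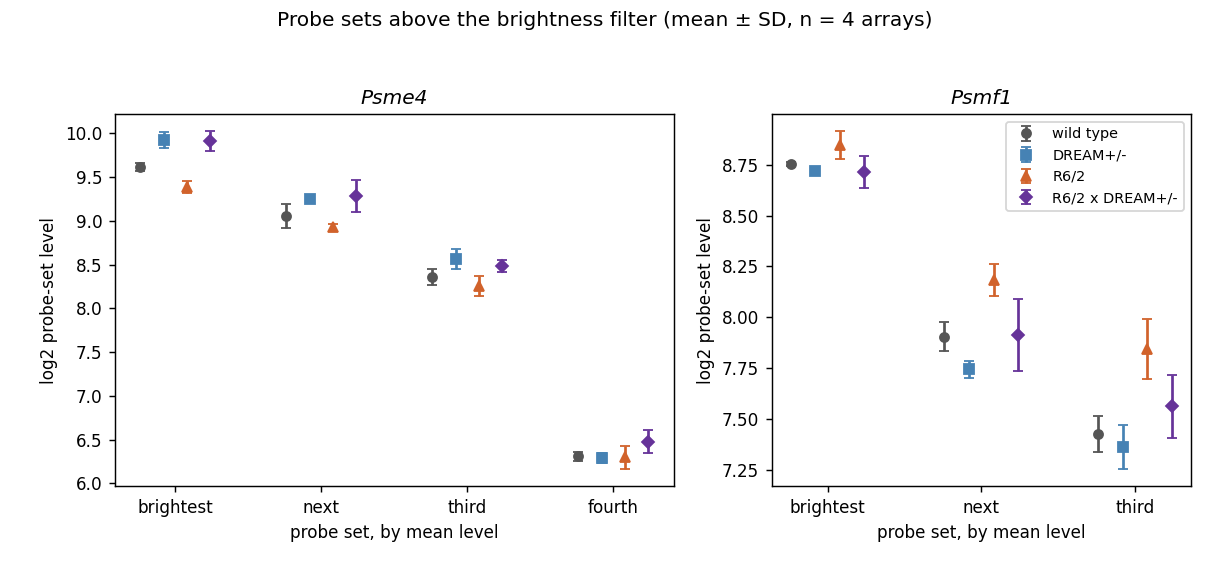
Log2 level (vertical axis) of the probe sets above the brightness filter for Psme4 (4 probe sets) and Psmf1 (3 probe sets), ordered by mean level, in the 4 genotypes; points are means and bars SD (n = 4 arrays). The groups with DREAM+/- are high at the 3 brighter probe sets of Psme4, and the R6/2 group is high at the 2 dimmer probe sets of Psmf1.

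Psmf1 encodes PI31, which binds the core and inhibits it in the test tube. Its brightest probe set read 8.75, 8.76, 8.76 and 8.74 in wild type and 8.87, 8.78, 8.80 and 8.93 in R6/2. It read 8.72, 8.74, 8.71 and 8.70 in DREAM+/- and 8.73, 8.65, 8.66 and 8.82 in R6/2 x DREAM+/-. The R6/2 arrays were above the wild-type arrays, but the change did not pass (0.0925, adjusted p = 0.173), nor did that in R6/2 x DREAM+/- against R6/2 (-0.13, adjusted p = 0.08). Its 2 dimmer probe sets changed by 0.28 and 0.415 in R6/2 (adjusted p = 0.0136 and 0.00301) and by -0.27 and -0.28 in R6/2 x DREAM+/- against R6/2 (0.0267 and 0.0435). With the mean of all its probe sets, a probe set under the filter included, Psmf1 passed in both comparisons (0.18, adjusted p = 0.00707, and -0.17, adjusted p = 0.0181).

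The 4 chaperones of the 20S core, which pair up to build the alpha ring, were all lower in level in DREAM+/- than in wild type, and none passed limma's test across all genes (3 had an unadjusted p under 0.05). Psmg1 read 9.09, 9.01, 9.10 and 8.99 in wild type and 8.95, 8.81, 8.97 and 8.90 in DREAM+/- (log2 change -0.14, adjusted p = 0.165). Psmg2 read 9.72, 9.81, 9.88 and 9.86 against 9.68, 9.64, 9.60 and 9.55 (-0.20, adjusted p = 0.0688). Psmg3 read 8.54, 8.49, 8.47 and 8.48 against 8.45, 8.30, 8.41 and 8.34 (-0.12, adjusted p = 0.354). Psmg4 read 8.25, 8.33, 8.48 and 8.49 against 8.22, 8.17, 8.19 and 8.24 (-0.18, adjusted p = 0.18). In each of the 4 genes every DREAM+/- array lay below every wild-type array, which held for 7.94% of all genes tested and for 5 of the 45 proteasome genes, while 2 lay wholly above (4.57% of all genes).

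In R6/2 x DREAM+/- against R6/2, Psmg2 and Psmg4 fell and Psmg1 and Psmg3 did not pass. Psmg2 read 9.99, 9.97, 9.90 and 9.81 in R6/2 and 9.81, 9.74, 9.62 and 9.61 in R6/2 x DREAM+/-, meeting at 9.81 (log2 change -0.22, interval -0.35 to -0.10, adjusted p = 0.02). Psmg4 read 8.41, 8.35, 8.30 and 8.52 against 7.99, 8.07, 8.32 and 8.10, with 1 array of the cross inside the R6/2 range (-0.275, interval -0.43 to -0.12, adjusted p = 0.0187). Averaged over the 4 genes, arrays of the groups with 2 intact alleles lay at -0.037 to 0.046 (wild type) and -0.019 to 0.10 (R6/2) from the wild-type mean. Those with 1 allele lay at -0.21 to -0.11 (DREAM+/-) and -0.16 to -0.044 (R6/2 x DREAM+/-). The calls were lost with the mean of all probe sets of each gene (Psmg2 -0.13, adjusted p = 0.0933, and Psmg4 -0.0775, adjusted p = 0.372). That mean takes in probe sets under the filter, the only other one of Psmg4 (mean log2 level 3.88) and the dimmest of Psmg2 (5.63). The next probe set of Psmg2, above the filter, changed by -0.11 (adjusted p = 0.281 among all probe sets). Both calls were lost too on leaving out single arrays. These were R6/2 replicate 1 or 2 or R6/2 x DREAM+/- replicate 4 for Psmg2 (0.0544 to 0.0609), and R6/2 replicate 4 or R6/2 x DREAM+/- replicate 1 or 2 for Psmg4 (0.0534 to 0.0649).

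The remaining calls in R6/2 x DREAM+/- against R6/2 were in the cap. Psmd1 fell by 0.17 on the log2 scale from the R6/2 levels given above (log2 change -0.17, interval -0.28 to -0.06, adjusted p = 0.034). Its change in DREAM+/- against wild type was -0.09 (adjusted p = 0.361). The difference between its R6/2 changes on the 2 backgrounds was -0.08 and did not pass (unadjusted p = 0.278, limma adjusted p = 0.863). Psmd7, a lid subunit that pairs with the deubiquitinase Psmd14, rose from 9.71, 9.76, 9.65 and 9.57 to 9.83, 10.01, 9.76 and 9.93, the groups meeting at 9.76 (0.21, adjusted p = 0.0441). Its call was lost with the mean of all probe sets, a probe set under the filter included (0.025, adjusted p = 0.764), and without any 1 of 10 arrays, among them R6/2 replicates 1, 3 and 4 and R6/2 x DREAM+/- replicates 1, 2 and 4, DREAM+/- replicates 1, 2 and 3 and wild-type replicate 1 (0.0504 to 0.137). The other probe set of Psmd7 above the filter changed by -0.0925 (adjusted p = 0.382 among all probe sets). The call of Psmd1 was lost without R6/2 replicate 2 or 3 or R6/2 x DREAM+/- replicate 2 or 4 (0.0569 to 0.106).

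These DREAM+/- comparisons share no arrays with each other. The changes of the 45 genes had the same sign in 35, 20 positive and 15 negative, and correlated across genes at r = 0.79, or 0.70 without Psme4, against 70.0% of the same sign and r = 0.71 over all genes. Psme4 alone of the 45 passed in both. Markers of other cells differed in the same comparison: 5 of 7 cortical projection neuron markers were higher in R6/2 x DREAM+/- than in R6/2 (summed log2 levels 11.98 to 12.20 against 11.74 to 11.85), while wild-type arrays lay at 12.06 to 12.20. Few markers of the other lists passed there by limma. An unadjusted p under 0.05, in either direction, was more common: 5 of 7 microglia and 6 of 8 astrocyte markers had it. Of 6 choroid plexus and ependyma markers Kcne2 was higher (log2 change 2.68), of 7 microglia markers C1qb (0.55) and of 7 oligodendrocyte markers Mal (0.19). Of 8 astrocyte markers Gfap was higher (0.525) and S100b lower (-0.26). Of 10 medium spiny neuron markers Bcl11b was higher (0.23), and Ppp1r1b and Pdyn were lower (-0.30 and -0.34). Summed microglia markers ran from 12.91 to 12.96 in DREAM+/- against 12.57 to 12.81 in wild type, where 1 of 7, C1qb, passed by limma (5 had an unadjusted p under 0.05). The part of these cells in the changes of Psme4, Psme1 and the chaperones was not tested.

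The other genes of the pathway, none of them chosen by the naming rule, were read from lists. Of 10 tested genes of other proteasome parts, the ubiquitin ligase Ube3c, which acts at the proteasome, rose in R6/2 (log2 change 0.155, adjusted p = 0.0399) and the adaptor Ecpas on the DREAM+/- background (0.19, adjusted p = 0.0198), and none fell. That was 10% of the list in each comparison, below the 25.4% and 14.9% of all genes that passed. Of 13 tested genes of transcription control, 3 rose in each R6/2 comparison (23.1%, with 25.4% and 14.9% of all genes passing) and none fell. The factor Nfe2l3, a relative of Nfe2l1, changed by 0.62 and 0.45 (adjusted p = 4.85e-06 and 0.000208), and Nfya, a subunit of NF-Y, by 0.565 and 0.63 (0.000102 and 6.66e-05). Ngly1, the enzyme that activates NFE2L1 by removing its sugars, rose in R6/2 (0.19, adjusted p = 0.00968), and Nfe2l2, the master factor of the antioxidant response, on the DREAM+/- background (0.24, adjusted p = 0.0211). Nfe2l1 itself, the factor that restores proteasome genes after inhibition, had changes of -0.14 and -0.105 and did not pass (adjusted p = 0.357 in R6/2). Stat3, a STAT factor, rose in R6/2 x DREAM+/- against R6/2 (0.405, adjusted p = 0.0181), 7.69% of the 13, with 14.0% of all genes passing.

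Of 10 tested genes of ubiquitin, its activation and handling, Vcp, the segregase that extracts ubiquitinated proteins, rose in both R6/2 comparisons (0.21 and 0.205, adjusted p = 0.0166 and 0.0306). It alone passed, 10% of the list, below the 25.4% and 14.9% of all genes that passed. Of 22 tested conjugating enzymes, ligases and related genes of neurons, 1 rose in R6/2 and 2 on the DREAM+/- background. These shares, 4.55% and 9.09%, were also below the 25.4% and 14.9% of all genes. Uchl1, an abundant neuronal ubiquitin hydrolase, rose in both (0.19 and 0.18, adjusted p = 0.0131 and 0.0294), and the conjugating enzyme Ube2d2a on the DREAM+/- background (0.215, adjusted p = 0.0253). In R6/2 x DREAM+/- against R6/2, the ligase Itch (0.23, adjusted p = 0.00871) and the conjugating enzyme Ube2n (0.30, adjusted p = 0.0267) rose, 9.09% of the 22, with 14.0% of all genes passing. No gene of these 4 lists fell in any of the 4 comparisons, and none changed in DREAM+/- against wild type by limma (1, 2, 1 and 2 genes of the lists, in the order given, had an unadjusted p under 0.05).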

How the data were processed

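Striatal RNA of 16 mouse samples, 4 per genotype, was measured on Affymetrix mouse expression arrays. The authors deposited 1 log2 level for each probe set on each array, and the submitters' processing notes name RMA and affy without a version or an order of steps; no genome build is named in them. Such log2 values share their normalization across arrays, so small shifts of whole arrays can move small changes. No count or depth exists for arrays, and 4 arrays a group limit the precision.

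Of 45101 probe sets, the platform annotation gives 34945 exactly 1 symbol and 932 several, and names were taken from the former. All 47 proteasome genes matched RefSeq by Entrez ID with the same symbol. Each gene was read from its brightest probe set, and a gene was tested when that mean reached the 40th percentile of probe-set means (log2 5.94). A mean per genotype was fitted over all 16 arrays with limma 3.58.1 (lmFit, eBayes) in R 4.3.3, p-values were adjusted by Benjamini-Hochberg over 13011 genes, and tests are two-sided. The script was tested on simulated data. Changes of separate probe sets were fitted in the same way over all probe sets above the filter.

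The proteasome genes and all lists were chosen with earlier results of these data known. Named in full were genes that passed in any comparison, the peptidase subunits, the activators and the inhibitor, and of other lists the genes that passed, with Nfe2l1, Nfe2l2, Psmb8 and Psmb9. Beside them, genes with a wide interval were named after their values were seen. Replicates are biological per the series' design. Same-numbered arrays were checked for pairing: deviations from group means correlated above 0.1 in 11 of 24 pairs (lowest -0.41, highest 0.29), so the numbers were not taken as pairs. Alternatives covered the filter, the probe set, the normalization, the variance model, array weights, a replicate block, the groups in the fit and leaving out arrays. The mean of all probe sets of a gene took in those under the filter. No protein sequence was used here.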

Additional observations from a re-analysis of the deposited data

Results flagged for a closer look

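In 9 of 188 groups of 4 arrays (47 genes in 4 genotypes), 1 array lay far from the other 3 by Dixon's test at its 95% critical value, and chance alone gives about 1 group in 20. Wild-type replicate 4 was the outlying array in 3 of them: Psmc1 at 10.70 (others 10.87 to 10.89), Psmd3 at 9.90 (9.71 to 9.74) and Psmd6 at 10.99 (11.12 to 11.14). Wild-type replicate 3 was low for Psme1 at 9.21 (9.38 to 9.41). DREAM+/- replicate 1 was high for Psma3 at 11.93 (11.79 to 11.81), and DREAM+/- replicate 4 was low for Psmd7 at 9.63 (9.76 to 9.78). R6/2 replicate 2 was low for Psmd9 at 8.41 (8.51 to 8.52), and R6/2 replicate 3 was high for Psmd2 at 11.44 (11.39 in the others). R6/2 x DREAM+/- replicate 2 was low for Psmd1 at 10.96 (11.07 to 11.09).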

How the results depend on the processing

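The count of genes that passed moved by over 1.5 times under some alternatives, and no call changed sign under any of them. For R6/2 against wild type, 10 genes became 6 with no filter on dim genes, 5 with arrays shifted to a common median and 5 with only the 2 groups compared. For R6/2 x DREAM+/- against DREAM+/-, 5 became 3, 2 and 3 under the same alternatives. For DREAM+/- against wild type, 1 became 0 with probe sets free of cross-matching types and 2 with array weights. For R6/2 x DREAM+/- against R6/2, 6 became 2 with only the 2 groups compared. Leaving out each array in turn gave 5 to 10, 2 to 5, 1 to 1 and 3 to 8 genes in these comparisons, the lower counts without R6/2 replicate 2, 3 or 4 or wild-type replicate 3 in the first, R6/2 x DREAM+/- replicate 1 or 2 or DREAM+/- replicate 2, 3 or 4 in the second, and R6/2 x DREAM+/- replicate 2 in the last. The cause was not tested. With a replicate block, 10, 5, 1 and 5 genes passed, Psmd7 in R6/2 x DREAM+/- against R6/2 being the one lost (adjusted p = 0.0573); 8 of 16 arrays correlated best with an array of their own number. No gene passed for the difference between R6/2 changes under any alternative by limma, and the median changes moved by less than the spread between replicates. The calls of Psme1 (3), Psmb10 (2), Psmd1 in R6/2, Psmc3ip in R6/2 and Psme4 in R6/2 x DREAM+/- against R6/2 held under every alternative that tested them, with Psmc3ip down to 0.15. All 45 genes were above the brightness filter, and most of their changes are near the spread between 4 replicates.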
